A study of Mus musculus with 12 samples.

Results

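The 7 genes described here, Slc17a7, Jpt1, Fam122b, Lrtm1, Tmem150c, Mal and Gm5532, were picked from 38293 measured genes on their values in injured Zeb2 hearts: they were among the most consistent differences between Zeb2 WT IR and Zeb2 cTg IR, the hearts labelled as Zeb2 transgenic (Zeb2 Tg), called the cTg-labelled libraries below. By the p-value of that comparison they ranked 3, 8, 9, 10, 11, 13 and 2 of the 13018 genes tested. Their difference there is thus a description and was given no test. The confidence intervals printed and drawn for it come from the fit that was used to pick the genes. They take no account of the picking, so they are descriptions too and are not read as tests. The sizes of these differences may be overstated by the picking. Each symbol matched 1 identifier in both count tables, and all 7 passed the filter on low counts in both. In the Zeb2 table Tmem150c passed it through Zeb2 WT IR alone.

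RNA was sequenced from hearts of mice that were 8 to 9 weeks old, in 4 groups of 3 animals. On their sex the methods of the study differ. They name male mice where the transgenic models are described, and male and female mice in a general statement. All 4 groups are labelled C57Bl/6J. WT sham and WT IR were wild-type mice after a sham operation or 14 days after ischaemia-reperfusion (IR, a temporary tie of a coronary artery), and they shared 1 table. Zeb2 WT IR and Zeb2 cTg IR were littermates, all 14 days after IR, and shared the other. Zeb2 cTg mice carried a Zeb2 transgene in the Rosa26 locus behind a stop cassette, which a Cre recombinase driven by the Myh6 (αMHC) promoter removes in cardiomyocytes only; which of these alleles the Zeb2 WT littermates carried is not given in the sources used here. The sources also differ on the tissue, which they give as left ventricle, as remote zone and as infarct with border zone.

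Zeb2, the gene of the transgene, was examined as a check of the labels. It lay between 54.7 and 67.0 CPM (counts per 1000000 counts of a library, after TMM scaling) in Zeb2 WT IR and between 55.5 and 58.7 CPM in the cTg-labelled libraries, a log2 difference of -0.07 with a standard error of 0.12 (adjusted p = 0.750, edgeR's quasi-likelihood test with Benjamini-Hochberg adjustment). It was thus not higher where the label says that it was overexpressed, and the labels of these libraries are used below without that check. Whether RNA of the transgene is counted on the Zeb2 gene model is not given in the sources used here. In WT IR, Zeb2 rose over WT sham by 0.47 on the log2 scale (SE 0.12, adjusted p = 0.0219 by the same test), a call kept in 3 of 6 fits with 1 library left out and lost after correction for GC content (0.29, adjusted p = 0.0680). Libraries held from 20215781 to 36816818 counts, 60.6% to 73.5% of them mitochondrial, and 1 CPM stood for 17.2 to 37.8 counts.

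ZEB2 is a zinc finger transcription factor that binds DNA at short E-box-like sites and is best known as a repressor of epithelial genes during development. The genes picked are of different families. SLC17A7, also called VGLUT1, loads glutamate into synaptic vesicles of excitatory neurons, where it is a defining marker. JPT1 is a small protein of the Jupiter family, which is named for a microtubule-associated protein of the fly. FAM122B is the relative of FAM122A, an inhibitor of protein phosphatase 2A (PP2A). LRTM1 and TMEM150C are membrane proteins, the former with leucine-rich repeats and the latter, also called tentonin 3, described in mechanically gated currents of sensory neurons. MAL is a proteolipid of myelin and of membrane rafts in epithelia and T cells. Gm5532 is a long intergenic RNA with no known product.

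All 7 have a start in the RefSeq promoter table of the same mouse build (GRCm38.p6), and the 250 bases before it were searched on both strands for CACCT, the core bound by the zinc fingers of ZEB proteins, and for CACCTG, which contains that core. The core was present before Slc17a7, Tmem150c and Gm5532 (3 of 7 genes), whereas 49.4% of the 27025 genes in the table have it, and CACCTG before Slc17a7 only (19.4% of genes). The windows of 4 genes are shown, since they are those of the gene with the greatest rise, of the higher gene with the least spread, of the most abundant gene and of the noncoding gene, and among them both a higher and a lower gene hold the core and both a higher and a lower gene lack it. They run 5′ to 3′ on the strand of the gene and end at the base before the start, and capitals mark CACCT or its reverse complement. They lie at chr7:45163671-45163920 (plus strand), chr11:115514394-115514643 (minus), chr14:29017958-29018207 (plus) and chr1:155527112-155527361 (minus).
Slc17a7: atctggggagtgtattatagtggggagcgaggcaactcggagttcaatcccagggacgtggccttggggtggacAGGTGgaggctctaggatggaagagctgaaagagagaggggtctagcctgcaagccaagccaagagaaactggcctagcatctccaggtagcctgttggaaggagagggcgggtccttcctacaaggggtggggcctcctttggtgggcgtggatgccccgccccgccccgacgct
Jpt1: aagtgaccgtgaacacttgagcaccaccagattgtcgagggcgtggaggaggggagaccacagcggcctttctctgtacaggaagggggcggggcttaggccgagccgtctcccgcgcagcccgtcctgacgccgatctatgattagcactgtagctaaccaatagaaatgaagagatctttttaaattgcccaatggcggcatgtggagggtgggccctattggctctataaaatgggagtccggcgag
Lrtm1: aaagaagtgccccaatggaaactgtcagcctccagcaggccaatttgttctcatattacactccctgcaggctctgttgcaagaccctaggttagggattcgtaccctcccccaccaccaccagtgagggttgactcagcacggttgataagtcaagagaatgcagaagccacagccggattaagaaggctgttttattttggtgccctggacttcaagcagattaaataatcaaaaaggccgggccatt
Gm5532: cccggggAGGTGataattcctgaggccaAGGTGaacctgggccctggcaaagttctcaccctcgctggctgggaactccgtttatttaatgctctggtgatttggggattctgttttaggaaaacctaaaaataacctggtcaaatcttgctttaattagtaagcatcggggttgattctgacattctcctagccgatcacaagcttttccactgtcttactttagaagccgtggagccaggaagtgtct
The match in Slc17a7 began 176 bases before the start, and those in Gm5532 began 243 and 222 bases before it. Such matches are a description of the letters in these windows, and binding was not measured in these libraries.

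Slc17a7 (ENSMUSG00000070570) lies on the plus strand at chr7:45163949-45176142 (GRCm38, GENCODE M21). It had 2.38, 2.15 and 2.60 CPM in Zeb2 WT IR and 24.9, 14.3 and 19.1 CPM in the cTg-labelled libraries, from 53 to 78 and from 374 to 680 counts per library. Each of the latter was higher than each of the former, and the nearest pair of libraries differed 5.49-fold. In bulk RNA such as this, more or fewer cells of a type and more or less RNA per cell cannot be told apart. The mean was 2.38 ± 0.227 CPM (SD, n = 3) against 19.4 ± 5.30 CPM (SD, n = 3), 8.17-fold higher, and the fitted log2 difference was 3.02 (95% confidence interval 2.53 to 3.52). In the other table it had 5.07, 4.05 and 2.50 CPM in WT sham and 3.03, 2.75 and 2.69 CPM in WT IR. These groups overlapped, because the third sham library lay below all 3 injured ones.

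Jpt1 (ENSMUSG00000020737) lies on the minus strand at chr11:115497353-115514387. Its level was 9.90, 8.74 and 10.1 CPM in Zeb2 WT IR and 23.7, 24.8 and 26.9 CPM in the cTg-labelled libraries. The rise was 2.62-fold, from 9.59 ± 0.744 to 25.1 ± 1.63 CPM (SD, n = 3 each), or 1.39 on the log2 scale (95% confidence interval 1.11 to 1.67). It was the smallest difference of the 7 genes, with a coefficient of variation under 8% in both groups, 7.76% and 6.49%. WT sham had 12.6, 12.1 and 10.01 CPM and WT IR 13.1, 13.6 and 13.8 CPM, so the injured hearts lay above the sham hearts without overlap, 1.04-fold at the nearest pair.

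Fam122b (ENSMUSG00000036022), on the minus strand of the X chromosome at chrX:53243415-53269805, was low in 3 of the 4 groups. It had 2.46, 2.55 and 2.93 CPM in Zeb2 WT IR and 11.2, 10.8 and 8.28 CPM in the cTg-labelled libraries, a 3.81-fold difference (log2 1.92, 95% confidence interval 1.52 to 2.32). WT sham had 1.40, 1.69 and 2.97 CPM, and WT IR 1.97, 1.93 and 1.94 CPM. The injured wild-type hearts thus lay inside the range of the sham hearts. Their coefficient of variation was 1.02%, and that of the sham hearts 41.4%. The injured hearts had 63, 73 and 52 counts, and the sham hearts 37, 55 and 51. A spread of 1.02% is below the counting error of such numbers, so these spreads are not compared.

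Lrtm1 (ENSMUSG00000045776) was the most abundant of the 7 and lies on the plus strand at chr14:29018208-29033645, within the bounds of Cacna2d3 on the opposite strand. It had 230, 306 and 254 CPM in Zeb2 WT IR and 67.3, 45.5 and 72.6 CPM in the cTg-labelled libraries. The means, 263 ± 38.8 and 61.8 ± 14.4 CPM (SD, n = 3 each), differed 4.26-fold (log2 -2.09, 95% confidence interval -2.53 to -1.66). Cacna2d3, which encodes an accessory subunit of calcium channels, had 14 counts over the 3 Zeb2 WT IR libraries and 13 over the 3 cTg-labelled ones, where Lrtm1 had 21452 and 5382. In WT sham Lrtm1 spread widely, with 193, 271 and 357 CPM, and in WT IR it had 201, 215 and 163 CPM.

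Tmem150c (ENSMUSG00000050640) showed the greatest ratio. It lies on the minus strand at chr5:100077872-100159808, and the antisense gene Tmem150cos inside it had 0 counts in all 6 libraries of the Zeb2 table. Its counts were 57, 60 and 56 in Zeb2 WT IR (2.09, 2.43 and 1.87 CPM) and 4, 1 and 4 in the cTg-labelled libraries (0.168, 0.0382 and 0.112 CPM). The means differed 20.1-fold (log2 -4.28, 95% confidence interval -5.17 to -3.39). Since 3 counts stand for 0.115 CPM in the second of these libraries, its level there cannot be told from the counting limit. Tmem150c passed the filter on low counts through Zeb2 WT IR alone, so the size of its fold and interval is uncertain. WT sham had 2.08, 2.24 and 3.14 CPM and WT IR 2.13, 1.40 and 1.19 CPM, all above 1 CPM.

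Mal (ENSMUSG00000027375), on the minus strand at chr2:127633226-127656695, had 10.45, 11.9 and 11.96 CPM in Zeb2 WT IR and 3.65, 3.02 and 2.39 CPM in the cTg-labelled libraries. This was a 3.79-fold difference (log2 -1.93, 95% confidence interval -2.34 to -1.52). In WT sham it had 8.32, 8.62 and 9.25 CPM and in WT IR 6.91, 7.70 and 7.98 CPM. Here the injured hearts lay below the sham hearts without overlap, 1.04-fold at the nearest pair.

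Gm5532 (ENSMUSG00000073535), annotated as a lincRNA on the minus strand at chr1:155520173-155527143, had 37.3, 41.3 and 39.2 CPM in Zeb2 WT IR and 11.9, 10.3 and 9.63 CPM in the cTg-labelled libraries. The difference was 3.696-fold (log2 -1.89, 95% confidence interval -2.18 to -1.60), with 3.13-fold between the nearest pair of libraries. WT sham had 18.6, 22.8 and 20.5 CPM and WT IR 23.2, 23.3 and 21.6 CPM, so these groups overlapped.

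**Figure D1:**
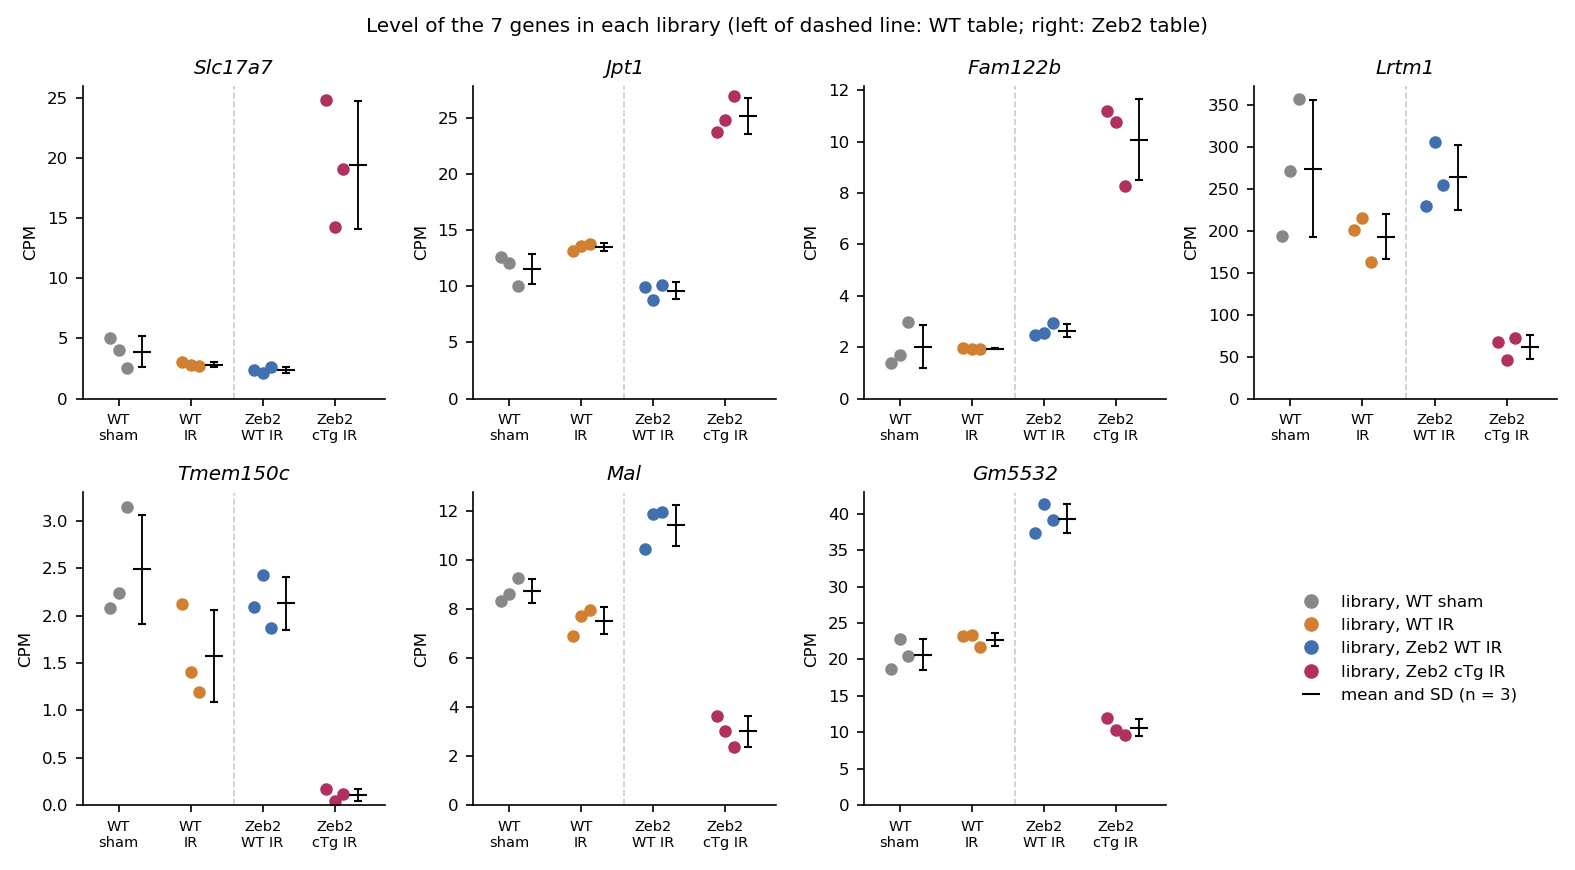
Level of each of the 7 genes in CPM (vertical axis, linear from 0) in the 3 libraries of each group (points), with the mean and SD beside them; the tables to the left and right of the dashed line were scaled separately. Slc17a7, Jpt1 and Fam122b were highest, and Lrtm1, Tmem150c, Mal and Gm5532 lowest, in the 3 cTg-labelled libraries.

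In this comparison the groups of 3 did not overlap for any of the 7 genes, as the way they were picked would have it. Without overlap were 26.2% of the 13018 genes tested, and 3.64% had an adjusted p under 0.05. Over 16 other ways to process the data (15 for Tmem150c, which fell out of the strictest filter), each of the 7 kept its direction. These runs refit the libraries used to pick the genes, so a kept direction is no independent support. A trend with base composition ran through these libraries: across 12892 genes, which are not independent replicates, Spearman's rho between the log2 difference and the GC content of the transcript was 0.552. The GC content was 56.6% for Slc17a7, 54.5% for Jpt1 and 42.6% for Fam122b, and between 43.3% and 51.1% for the 4 lower genes. After correction for it the log2 differences were 2.67, 1.16 and 2.11 for the 3 higher genes, -1.89 for Lrtm1, -4.35 for Tmem150c, -1.91 for Mal and -1.70 for Gm5532. With library sizes taken from 18 cardiomyocyte markers, which shifted the median log2 difference over all genes by -0.15, they were 2.86, 1.24, 1.77, -2.24, -4.42, -2.08 and -2.04 in the same order. These sizes rest on summed marker counts, most of which were of Ttn. Its mean was 42230 CPM in Zeb2 WT IR, of sums of 64200 to 69690 CPM, and 46510 CPM in the cTg-labelled libraries, of 71820 to 75980 CPM. In WT sham and WT IR it was 39260 and 33770 CPM. Values given relative to cardiomyocyte markers are thus largely relative to Ttn.

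WT IR and WT sham were not used to pick the genes, and the comparison between them asks whether injury itself moved the same genes. None of the 7 passed edgeR's quasi-likelihood test with Benjamini-Hochberg adjustment, where 20.8% of 13756 genes did. At an unadjusted p under 0.05 there were 3 of 7 (36.2% of all genes), and with DESeq2 1 passed, Lrtm1 (17.6% of all genes). The groups did not overlap for 2 of 7, against 39.8% of all genes. None of these shares of the 7 stood well above that of all genes. Spearman's rho between the log2 fold change and GC content across 13609 genes was -0.292 here.

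The log2 fold change after injury was -0.50 for Lrtm1 (SE 0.20, adjusted p = 0.0990), and DESeq2 gave -0.51 (adjusted p = 0.0295 with Benjamini-Hochberg adjustment). For Tmem150c it was -0.62 (SE 0.25, adjusted p = 0.103) and for Slc17a7 -0.49 (SE 0.22, adjusted p = 0.137). These 3 genes passed in some of the fits with 1 library left out. Lrtm1 passed without WT sham replicate 1 (-0.70, adjusted p = 0.0373), Slc17a7 without WT sham replicate 3 (-0.70, adjusted p = 0.0370) and Tmem150c without WT IR replicate 1 (-0.89, adjusted p = 0.00933). Lrtm1 also passed after correction for GC content (-0.64, adjusted p = 0.0437). Jpt1 had 0.22 (SE 0.097, adjusted p = 0.143), Mal -0.21 (SE 0.10, adjusted p = 0.161) and Gm5532 0.14 (SE 0.090, adjusted p = 0.304). Relative to cardiomyocyte markers, which fell in WT IR, Jpt1 (0.52, adjusted p = 0.0309) and Gm5532 (0.43, adjusted p = 0.0350) passed. Fam122b stood at 0.01 (SE 0.25, adjusted p = 0.990), with a 95% confidence interval from -0.56 to 0.57. Over the 7 genes the intervals reached from -1.18 to 0.57.

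**Figure D2:**
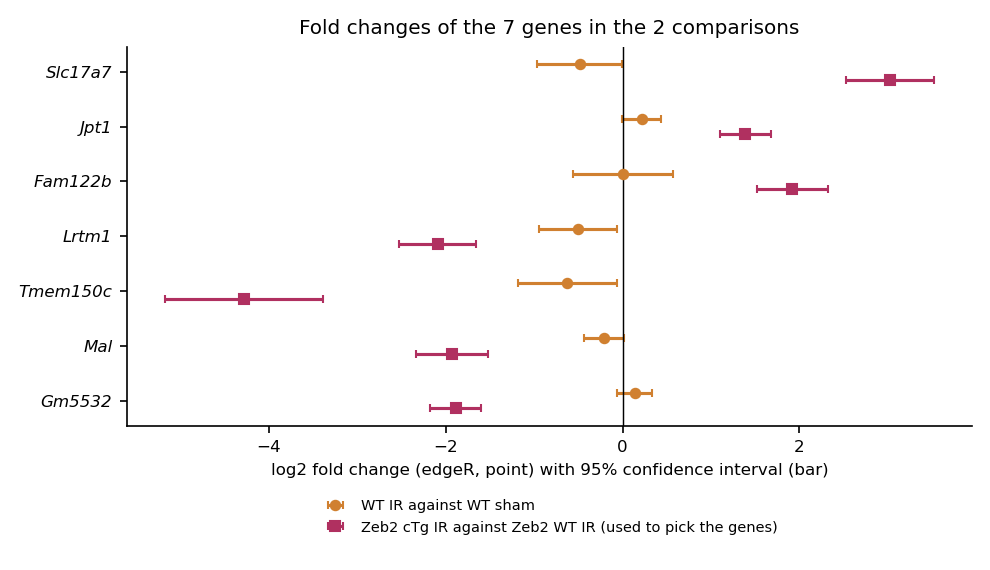
Log2 fold change (horizontal axis) of each gene with its 95% confidence interval, for WT IR against WT sham (orange circles) and for the cTg-labelled libraries against Zeb2 WT IR (red squares), the comparison used to pick the genes. The orange values lie between -0.62 and 0.22, and the red ones between -4.28 and 3.02. The red intervals take no account of the picking and are not read as tests.

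Levels were then set side by side across the tables, without a test, since they were made and scaled separately and the mice were other animals. For all 7 genes the 3 cTg-labelled libraries lay outside the range of the 6 wild-type libraries, which was so for 23.1% of 12791 genes tested in both tables. Since the genes were picked for their values in these very libraries, nothing is read from that count. The 3 libraries of Zeb2 WT IR lay outside it for 2 of 7 genes, against 29.9% of all genes. These were Mal and Gm5532, whose levels in the littermates were above all sham and injured wild-type hearts. For the other 5 genes, the cTg-labelled libraries lay outside and those of Zeb2 WT IR did not lie wholly outside, a pattern held by 11.6% of all genes, and here too the picking bears on the count. Without WT sham replicate 3, the shallowest library and the highest or lowest of the 6 wild-type ones for 6 of the 7 genes, Zeb2 WT IR lay outside for 5 of 7, and without Zeb2 WT IR replicate 3 for 4 of 7; the 7 of 7 for the cTg-labelled libraries remained in all of these.

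Against the mean of WT IR, Slc17a7 was 6.88-fold, Fam122b 5.18-fold and Jpt1 1.86-fold higher in the cTg-labelled libraries. Tmem150c was 14.8-fold, Lrtm1 3.12-fold, Mal 2.50-fold and Gm5532 2.14-fold lower. For 6 of the 7 genes these ratios were smaller than those to the littermates, and for Fam122b the ratio was larger (5.18 against 3.81). Zeb2 WT IR stood above WT IR by 1.73-fold for Gm5532 and 1.52-fold for Mal, and 1.41-fold below it for Jpt1. Slc17a7 differed least between these groups, with Zeb2 WT IR 1.19-fold below WT IR.

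Divided by exon length (CPM per kilobase, RPKM), the levels had the same order at the top in 3 of the 4 groups. In Zeb2 WT IR, Lrtm1 had 33.2 ± 4.89 RPKM (SD, n = 3) and Gm5532 17.8 ± 0.904, followed by Jpt1 (4.46 ± 0.346) and Mal (4.11 ± 0.303), which did not differ beyond their spread. Fam122b had 0.60 ± 0.0571 RPKM, Slc17a7 0.441 ± 0.0421 and Tmem150c 0.383 ± 0.0510, and the last pair again overlapped. In the cTg-labelled libraries, Jpt1 came first with 11.7 ± 0.759 RPKM and Lrtm1 second with 7.78 ± 1.81. Gm5532 (4.82 ± 0.539), Slc17a7 (3.60 ± 0.982) and Fam122b (2.29 ± 0.356) followed with overlapping spreads, then Mal (1.09 ± 0.227) and Tmem150c (0.0191 ± 0.0117). Slc17a7 thus stood near Tmem150c in Zeb2 WT IR and near Gm5532 in the cTg-labelled libraries. In WT sham the order was Lrtm1 (34.5 ± 10.3), Gm5532 (9.36 ± 0.946), Jpt1 (5.38 ± 0.634), Mal (3.14 ± 0.172), Slc17a7 (0.718 ± 0.240), Fam122b (0.458 ± 0.189) and Tmem150c (0.448 ± 0.103), the last 3 within their spread. WT IR had the same order, with 24.3 ± 3.39 RPKM for Lrtm1 and 0.283 ± 0.0880 for Tmem150c.

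Relatives of the 7 genes were not used to pick them and were tested in both comparisons by edgeR's quasi-likelihood test with Benjamini-Hochberg adjustment over all genes. In all, 6 of 96 relatives (6.25%) passed in the Zeb2 table, where 3.64% of all genes did. In WT IR against WT sham 26 of 93 (28%) passed, where 20.8% of all genes did. Over all genes tested the median log2 value was 0.0064 in WT IR and 0.0059 in the Zeb2 table, and the median of each list is set beside these. Beside Slc17a7, only Slc17a5 and 1 other gene of 12 vesicular transporters were abundant enough to test, and neither passed (none at an unadjusted p under 0.05, none with DESeq2; list median -0.21). Slc17a6, the vesicular glutamate transporter of other neurons, had 0 counts in all 12 libraries, and Slc17a8 had at most 2 counts in any. Slc17a5, a lysosomal sialic acid exporter, had 3.22 ± 0.282 CPM in Zeb2 WT IR and 2.78 ± 0.663 CPM in the cTg-labelled libraries (SD, n = 3 each), a log2 difference of -0.20 (adjusted p = 0.586). In WT IR it rose by 0.52 (SE 0.12, adjusted p = 0.0181, in 2 of 6 fits with 1 library left out), a call lost with DESeq2 (adjusted p = 0.0631) and after correction for GC content (adjusted p = 0.0533).

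Of 26 other genes for glutamate transport, metabolism and receptors, 16 were tested in the Zeb2 table, where 1 rose and 1 fell (list median 0.13). Grin2c, a subunit of NMDA receptors, was the higher one, with 4 counts over the 3 libraries of Zeb2 WT IR and 67 over the 3 cTg-labelled ones. It passed the filter on low counts through the latter alone and had at most 2 counts in any Zeb2 WT IR library, below the floor of 3 counts, so no fold is given for it. In WT IR 4 of 15 rose and 2 fell (list median 0.034). Gria3, a subunit of AMPA receptors, rose by 1.61 (SE 0.23, adjusted p = 0.00428) and the glutamine transporter gene Slc1a5 by 0.79 (SE 0.17, adjusted p = 0.0139). Slc38a3, another glutamine transporter gene, fell by 0.66 on the log2 scale (SE 0.13, adjusted p = 0.0109). Left-out libraries ended the call of Slc1a5 in 3 of 6 fits and that of Slc38a3 in 1, and relative to cardiomyocyte markers the change of Slc38a3 was -0.38 (adjusted p = 0.0471).

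Jpt2, the nearest relative of Jpt1, had a log2 difference of -0.39 in the cTg-labelled libraries (SE 0.19, adjusted p = 0.236), against the rise of Jpt1. None of 24 genes for microtubule-associated proteins and tubulins passed there (7 at an unadjusted p under 0.05, 1 with DESeq2; list median 0.19). In WT IR 6 of the 24 rose and 5 fell (list median 0.17). Tuba1a, an α-tubulin gene, rose by 0.79 (SE 0.14, adjusted p = 0.00796) and Map1b by 0.74 (SE 0.15, adjusted p = 0.0127), whereas the tubulin gene Tuba8 fell by 0.59 on the log2 scale (SE 0.12, adjusted p = 0.0115) and Map1s by 1.02 (SE 0.19, adjusted p = 0.00897). Relative to cardiomyocyte markers Tuba8 did not pass (adjusted p = 0.0579), and after correction for GC content Map1s had -0.61 (adjusted p = 0.0357). Fam122a had 0.58 in the Zeb2 table (SE 0.27, adjusted p = 0.232) and Fam122c had 0 counts in all 12 libraries. None of 20 FAM122 and PP2A subunit genes passed there (5 at an unadjusted p under 0.05, none with DESeq2; list median -0.14). In WT IR the regulatory subunit genes Ppp2r5a (-0.31, adjusted p = 0.0243) and Ppp2r5b (-0.41, adjusted p = 0.0160) fell, in 1 and 3 of 6 fits with 1 library left out, and no other of the 20 passed (list median -0.095). Neither passed relative to cardiomyocyte markers (adjusted p = 0.913 and 0.547), and Ppp2r5b did not after correction for GC content (adjusted p = 0.0574).

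Lrtm2 had at most 3 counts in any library. Of 4 other leucine-rich repeat genes tested (list median 0.35), Lrrc10, a cardiac protein of that class, rose in the cTg-labelled libraries from 17.6 ± 4.65 to 35.2 ± 5.94 CPM (SD, n = 3 each), by 1.00 on the log2 scale (SE 0.20, adjusted p = 0.0307, and past the threshold in 2 of 6 fits with 1 library left out). Its call was lost relative to cardiomyocyte markers (adjusted p = 0.0509). Lrtm1 stood 4.26-fold lower in the same libraries. In WT IR, Lrrc20 was the 1 gene of the 4 that passed (-0.54, SE 0.10, adjusted p = 0.00874), though not relative to cardiomyocyte markers (adjusted p = 0.171). Neither of the 2 α2δ subunit genes that could be tested passed in either comparison, and the cardiac one, Cacna2d1, had a log2 difference of -0.12 (SE 0.16, adjusted p = 0.660) in the Zeb2 table; at an unadjusted p under 0.05, 1 of the 2 passed in WT IR and none in the Zeb2 table, and with DESeq2 none did.

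Tmem150a, the abundant relative of Tmem150c, had 3.60 ± 1.12 CPM in Zeb2 WT IR and 7.03 ± 1.45 CPM in the cTg-labelled libraries (SD, n = 3 each). The log2 difference of 0.96 (SE 0.25, adjusted p = 0.0671) did not pass and had the sign opposite to that of Tmem150c. Tmem150b had at most 9 counts in any library. Of 12 genes for these proteins and mechanosensitive channels (list median -0.063), Piezo2 passed, at -1.71 (SE 0.29, adjusted p = 0.0180, in 3 of 6 fits with 1 library left out). In WT IR, Piezo2 (2.13, adjusted p = 0.00879) and Pkd2 (0.80, adjusted p = 0.00797) rose and Tmem63b fell (-0.53, adjusted p = 0.0116), of 11 tested (list median 0.074), and relative to cardiomyocyte markers Tmem63b did not pass (adjusted p = 0.102).

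Of 16 genes for MARVEL domain proteins, which share that membrane domain with MAL, for proteolipids and for other proteins of membrane rafts and caveolae (flotillins, caveolins and cavins), 2 fell and none rose in the cTg-labelled libraries (list median -0.14). Cmtm8 fell from 2.84 ± 0.253 to 0.898 ± 0.284 CPM (SD, n = 3 each), by 1.64 on the log2 scale (SE 0.26, adjusted p = 0.0143, in 4 of 6 fits with 1 library left out). Marveld2, the tricellular junction protein tricellulin, fell by 1.91 (SE 0.44, adjusted p = 0.0484, in 1 of 6 such fits), and it did not pass with DESeq2 (adjusted p = 0.0671). It had 0.659 ± 0.188 and 0.170 ± 0.0762 CPM, and passed the filter on low counts through Zeb2 WT IR alone, so that its call is no support for a shared direction with Mal. Mall, which lies 47.7 kb from Mal, had -0.38 (SE 0.35, adjusted p = 0.520). In WT IR, Cmtm8 (-0.54, adjusted p = 0.0379) and Cavin1 (-0.25, adjusted p = 0.0361) fell, each in 1 of 6 fits with 1 library left out, of 15 tested (list median 0.093). Cmtm8 did not pass with DESeq2 (adjusted p = 0.106), and Cavin1 did not after correction for GC content (adjusted p = 0.111). Relative to cardiomyocyte markers neither passed (adjusted p = 0.328 and 0.786), and Cavin1 turned to 0.044.

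**Figure D3:**
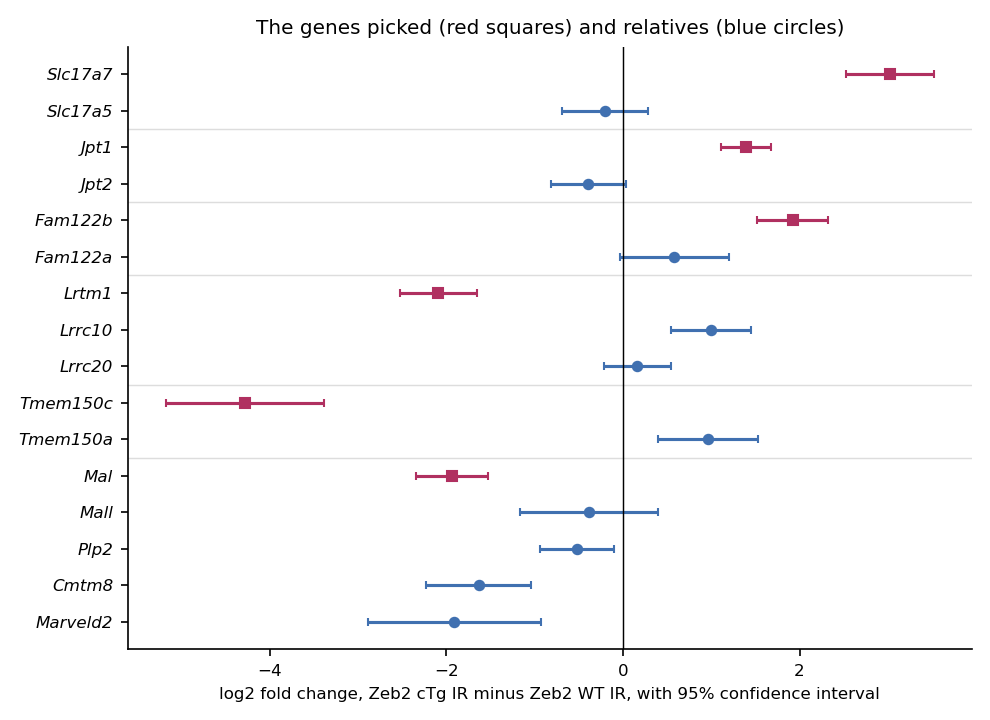
Log2 difference between the cTg-labelled libraries and Zeb2 WT IR (horizontal axis, with its 95% confidence interval) for 6 of the genes picked (red squares) and for relatives (blue circles), grouped between grey lines. Cmtm8 (-1.64) lies on the side of Mal (-1.93), as does the sparsely counted Marveld2 (-1.91). Only some of the 16 genes tested beside Mal are drawn, and the median of that list was -0.14. Among those not drawn, Marveld1 (0.31) and Cmtm7 (0.35) had the opposite sign and did not pass. Tmem150a (0.96) and Lrrc10 (1.00) lie opposite Tmem150c (-4.28) and Lrtm1 (-2.09). The intervals of the red squares take no account of the picking and are not read as tests.

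Of 117 genes tested within 500 kb of the 7, 2 passed in the Zeb2 table, both higher, where 3.64% of all genes did. At an unadjusted p under 0.05 there were 31 (24.1% of all genes), and with DESeq2 9 (7.81% of all genes). The 2 that passed were Bax, 286 kb from Slc17a7, and the sparsely counted Grin2c, 230 kb from Jpt1. Grin2c passed the filter on low counts through the cTg-labelled libraries alone. Bax had a log2 difference of 1.16 (SE 0.26, adjusted p = 0.0429 by edgeR's quasi-likelihood test with Benjamini-Hochberg adjustment). It passed in 1 of 6 fits with 1 library left out, and after correction for GC content it had 0.55 (adjusted p = 0.194). Relative to cardiomyocyte markers Bax did not pass either (adjusted p = 0.0510). The nearest tested neighbours were Pih1d1 for Slc17a7 (3.88 kb; 0.77, adjusted p = 0.0900), Nt5c for Jpt1 (5.49 kb; 0.47, adjusted p = 0.427) and Enoph1 for Tmem150c (9.11 kb; 0.42, adjusted p = 0.282). For Mal it was Mrps5 (26.4 kb; 0.11, adjusted p = 0.661), for Gm5532 Acbd6 (31.0 kb; -0.01, adjusted p = 0.982) and for Fam122b Mospd1 (74.8 kb; -0.41, adjusted p = 0.127). Lrtm1 had Wnt5a (491 kb; -0.05, adjusted p = 0.871) as its only tested neighbour. In the windows around Fam122b, Lrtm1, Tmem150c, Mal and Gm5532 no gene passed in the Zeb2 table. Most of the 44 genes tested around Slc17a7 and of the 30 around Jpt1 had a positive log2 difference, and 1 passed in each window.

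**Figure D4:**
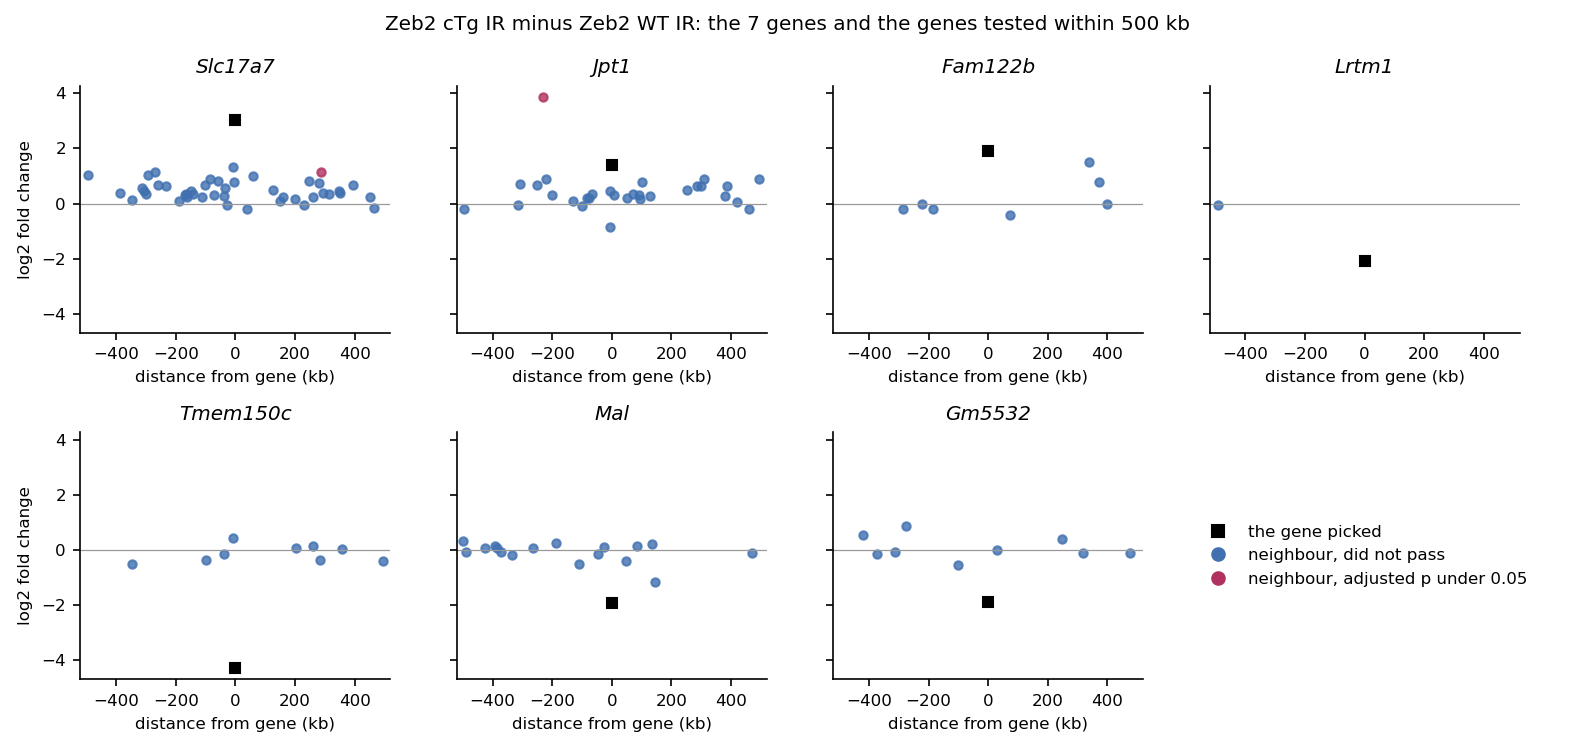
Log2 difference between the cTg-labelled libraries and Zeb2 WT IR (vertical axis) of each gene tested within 500 kb of 1 of the 7 genes, by its distance from that gene in kb (horizontal axis, negative towards lower coordinates). The black square is the gene picked, blue circles did not pass, and the 2 red circles are Bax (1.16) and, near Jpt1, Grin2c, whose height rests on 4 counts in Zeb2 WT IR.

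The hearts were checked against markers of their cell types. Cardiomyocyte markers were the most abundant, with sums over 18 genes of 64200 to 69690 CPM in Zeb2 WT IR and 71820 to 75980 CPM in the cTg-labelled libraries. Tnnt2 (0.68, adjusted p = 0.0375) and Mybpc3 (0.84, adjusted p = 0.0244) rose by edgeR's quasi-likelihood test with Benjamini-Hochberg adjustment, in 1 and 2 of 6 fits with 1 library left out (6 of the 18 at an unadjusted p under 0.05, 4 with DESeq2). After correction for GC content Mybpc3 had 0.49 (adjusted p = 0.0198). Of 10 fibroblast markers 3 fell, Col1a2 (-1.39, adjusted p = 0.0497), Col3a1 (-1.88, adjusted p = 0.0213) and Lum (-1.31, adjusted p = 0.0257), in 2, 3 and 4 of 6 fits with 1 library left out. At an unadjusted p under 0.05 there were 8 of the 10, with DESeq2 5, and the list median was -1.03, while the sums, 1104 to 2292 and 796 to 1138 CPM, overlapped. Macrophage markers summed to 181 to 247 and 189 to 222 CPM with 1 of 10 higher, Cd163 (1.63, adjusted p = 0.0204, in 3 of 6 such fits), and 5 at an unadjusted p under 0.05 and 2 with DESeq2. Endothelial markers summed to 505 to 565 and 433 to 489 CPM, with none of 10 past the threshold (4 at an unadjusted p under 0.05, 1 with DESeq2). Of 7 atrial markers tested Nppa rose (2.43, adjusted p = 0.0182, in 4 of 6 such fits, with 3 of the 7 at an unadjusted p under 0.05 and 3 with DESeq2), a gene that stressed ventricles express too; the sums were 439 to 563 and 613 to 908 CPM, Sln was at 0 in 5 of the 6 libraries, with 7 counts in Zeb2 cTg IR replicate 3, and Myl7 had 39 counts in that library and at most 1 in each of the others. The part of these cell types in the 7 differences was not tested.

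Since SLC17A7 and MAL are known from neurons and from myelin, markers of autonomic neurons and of Schwann cells were read beside them. No list of markers of excitatory neurons, which SLC17A7 marks, was read. The part of any of these cells in the levels of Slc17a7 and Mal was not tested. Autonomic neuron markers, 13 genes, summed to 2.27 to 3.85 CPM in Zeb2 WT IR and 4.39 to 5.53 CPM in the cTg-labelled libraries, without overlap, where Slc17a7 alone had 14.3 to 24.9 CPM. Of these markers 3 were tested and none passed (1 at an unadjusted p under 0.05, none with DESeq2). The median log2 difference of these 3 was 0.97, where that of all genes was 0.0059. Th was at 0 in all 12 libraries, Prph had a mean of 0.0344 and 0.0233 CPM, and Dbh 0.784 ± 0.367 and 1.55 ± 0.955 CPM (SD, n = 3 each). Schwann cell markers, 12 genes, summed to 25.7 to 30.6 and 25.1 to 28.4 CPM, while Mal stood 3.79-fold lower. None of the 5 tested passed (1 at an unadjusted p under 0.05, none with DESeq2, list median -0.24). Skeletal muscle markers summed to 1.38 to 2.02 and 2.06 to 4.52 CPM, and the 1 gene tested, Casq1, did not pass (nor at an unadjusted p under 0.05 or with DESeq2). DESeq2, run without the filter on low counts, called 1 other gene of that list, and Myh4 had no count in the cTg-labelled libraries. Lymphocyte markers summed to at most 1.97 CPM, adipocyte markers to at most 17.7 CPM and erythroid markers to at most 98.4 CPM in the 6 libraries. None of the 1, 2 and 5 of these tested passed (0, 0 and 1 at an unadjusted p under 0.05, none with DESeq2).

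In WT IR the same lists moved as follows. Of the fibroblast markers 8 of 10 rose, and of the macrophage markers 8 of 10, while 7 of 18 cardiomyocyte markers fell and the sums of the latter went from 65980 to 72040 CPM in WT sham to 50330 to 65330 CPM in WT IR. Of 6 Schwann cell markers tested 3 rose, and of 3 autonomic neuron markers 1 did, Uchl1 (0.67, adjusted p = 0.0232), which DESeq2 did not call (adjusted p = 0.0513). No member of the 7 passed there. Their levels in WT IR therefore stood beside a rise of the summed fibroblast markers from 883 to 1309 CPM in WT sham to 2298 to 5251 CPM. The part of this shift in their values was not tested.

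The genes whose pattern over all 12 libraries was most like that of each of the 7 were found by Pearson's r of log2 CPM (each table centred on its own mean) among 11899 genes. The r values are descriptions: the 12 libraries share 2 tables and 4 groups, and most of the variance is the difference that was used to pick the 7. For Slc17a7 they were Kcne1, a potassium channel subunit gene (r = 0.993), and Cacna1h, a T-type calcium channel gene (r = 0.981), and within the 6 wild-type libraries alone r was 0.905 and 0.580. For Jpt1 they were Myl12a (0.980) and Tbc1d1 (0.977), with 0.784 and 0.799 in the wild-type libraries. Fam122b was most like Hint1 (0.956) and Ndnf (0.951), with 0.843 and 0.895. Among the lower genes, Egf, which encodes epidermal growth factor, appeared for 3 of the 4: Lrtm1 (0.963), Tmem150c (0.975) and Gm5532 (0.985). The other gene was Mettl11b for Lrtm1 (0.961), Hs3st5 for Tmem150c (0.977) and Myot, the Z-disc gene of myotilin, for Gm5532 (0.980). Mal was most like D7Ertd443e (0.981) and Pfn2 (0.980). In the wild-type libraries alone, r with Egf was 0.77 for Lrtm1, 0.584 for Tmem150c and 0.491 for Gm5532. It was 0.601 for Mettl11b with Lrtm1 and 0.786 for Hs3st5 with Tmem150c. There D7Ertd443e (-0.118 with Mal) and Myot (-0.152 with Gm5532) did not follow the gene they matched, whereas Pfn2 did (0.853).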

How the data were processed

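The authors prepared stranded libraries, aligned single-end reads and deposited raw counts per gene in 2 tables of 38293 Ensembl genes and 6 libraries each; the submitters' processing notes name STAR 2.4.2a, HTSeq 0.6.1 and the build mm10, and whether strand was used in counting is not given in the sources used here. All sample columns were used, with groups and replicate numbers from the labels. Symbols, positions and GC content come from GENCODE M21 (36345 identifiers matched), and promoters from RefSeq.

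Each table was fitted separately in R 4.3.3 with edgeR 4.0.16: TMM size factors, filterByExpr (minimum count 10, minimum total 15), the quasi-likelihood test, with Benjamini-Hochberg adjustment across every gene of the table and calls below 0.05. Standard errors are the log2 fold change divided by the square root of F. CPM are TMM-scaled, with a prior count of 2 where logged. Replicates are separate animals, and no pair in a group was alike within sampling error (chi-square of 7.36 to 80.5 for each gene). The tests were tried on simulated counts.

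Genes named in the text are the 7 picked, relatives, host, overlapping and flanking genes, defining markers, at most 4 genes with the smallest p-values in a list that passed, and the 2 genes most correlated with each of the 7; some genes that this rule names are not reported here. The 7 genes and the lists were chosen with earlier results of these data known. Alternatives were RLE or cardiomyocyte-marker size factors, no mitochondrial genes, other filters, DESeq2 1.42.0, a replicate block, a loess correction for GC content (span 0.5), both together, all 12 libraries in 1 fit, and each library left out; a 100 kb window was added after seeing the data.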

Additional observations from a re-analysis of the deposited data

How the results depend on the processing

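In the Zeb2 table the 7 genes kept their direction in every alternative run, with log2 differences from 2.66 to 3.19 for Slc17a7, 1.16 to 1.43 for Jpt1, 1.77 to 2.11 for Fam122b, -2.24 to -1.89 for Lrtm1, -4.66 to -3.94 for Tmem150c, -2.09 to -1.78 for Mal and -2.04 to -1.70 for Gm5532. Since the genes were picked on these libraries, that is no independent support for the differences. The number of genes called there was 474, and 1553 without a filter, 826 with the GC correction, 1027 with DESeq2, 1932 with all 12 libraries in 1 fit, and 98 to 2419 with 1 library left out (lowest without Zeb2 WT IR replicate 3, highest without Zeb2 cTg IR replicate 2). With the replicate block it was 1813, although same-numbered animals deviated together in only some pairs (r of 0.134, 0.26 and -0.0425 in the Zeb2 table and -0.0343, 0.0119 and -0.0146 in the WT table), so the numbers were not taken to pair them. After injury, 2859 genes were called, 1424 with all 12 libraries in 1 fit and 421 to 4980 with 1 library left out (without WT sham replicate 2 and without WT IR replicate 1). Of the 7 genes none was called, 2 with cardiomyocyte-marker size factors (Jpt1 and Gm5532), 2 without a filter (Lrtm1 and Tmem150c), 1 with the GC correction and 1 with DESeq2 (Lrtm1 in both), and 0 to 1 with 1 library left out. Zeb2 WT IR lay outside the wild-type range for 2 to 5 genes with 1 library left out, and the cTg-labelled libraries for 7 throughout. Cardiomyocyte-marker size factors moved the median log2 fold change of all genes to 0.30 after injury and turned the split from 1519 higher and 1340 lower to 2946 and 219; in the Zeb2 table it went from 278 and 196 to 170 and 516. After injury the GC correction gave 1186 and 1597 and the fit of all 12 libraries 950 and 474. The sign of Fam122b after injury changed without mitochondrial genes (-0.0013), with the GC correction (-0.15, and -0.14 with the replicate block), with DESeq2 (-0.023) and across the left-out libraries (-0.20 to 0.31). That of Mal changed with cardiomyocyte-marker size factors (0.090), and that of Gm5532 with the GC correction (-0.017, and -0.013 with the replicate block). Within 100 kb of the 7 genes none of 30 genes was called by edgeR (8 at an unadjusted p under 0.05, 2 with DESeq2). The causes of these changes were not tested. Depth limits Tmem150c most, with 9 counts in all in the cTg-labelled libraries.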
